A study of Mus musculus with 12 samples.

Results

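The 10 genes of regulated cell death studied here, Zbp1, Ripk1, Ripk3, Mlkl, Casp1, Casp4, Gsdmd, Fas, Tnfsf10 and Casp8, were followed through the tumors of mice whose tumor cells carried, or lacked, a light-controlled cytokine module. These 10 genes were picked by symbol as rows of a count table of 32288 rows, and each of the 10 was among the 18804 genes with enough counts to be tested. RNA sequencing had been done on 12 tumors, 1 per mouse, in 4 groups of 3. The cells were P815, a mouse mastocytoma (mast cell tumor) line, injected under the skin of the back of DBA/2 mice. The engineered tumors (P815-IFNG) came from a single-cell clone that holds GAVPO, a transactivator switched on by blue light and driven by the EF-1α promoter, a UAS-controlled cassette of mouse Ifng and Cxcl10 with a secreted luciferase reporter, and an mRuby and firefly luciferase reporter. The control tumors (P815-M) came from another single-cell clone that holds only the mRuby and firefly luciferase reporter, so that any difference between the lines is also a difference between 2 clones. In the light group, each line was given blue light for 6 days in cycles of 12 h on and 12 h off, and in the dark group the same line was kept for 6 days without blue light.

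The genes belong to 3 linked routes. In necroptosis, the sensor ZBP1, which binds Z-form nucleic acid, or a death receptor passes through the kinases RIPK1 and RIPK3 to MLKL, which opens the plasma membrane. In pyroptosis, the inflammatory proteases caspase-1 and caspase-11 (the mouse enzyme encoded by Casp4) cut gasdermin D, whose released end forms pores. In the death receptor route, ligands such as TRAIL (Tnfsf10) and receptors such as FAS recruit caspase-8, which can start apoptosis and restrains necroptosis. Many of these genes are known to be induced by interferons through transcription factors such as IRF1, and tumor cells as well as macrophages and lymphocytes can express them.

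None of the 10 genes passed the test between groups in the fit of all 12 libraries. The genes whose libraries stood farthest apart were Zbp1, higher in light than in dark in engineered tumors, and Casp1 and Casp4, which were at their lowest in the control tumors kept in dark. Ripk1, Mlkl, Gsdmd, Fas, Tnfsf10 and Casp8 had light and dark values that overlapped in both lines. Ripk3 was the only gene of the 10 whose light values all lay below the dark values in engineered tumors.

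The libraries were of unlike depth, and this touches every value below. Replicate 3 of the light group and replicate 3 of the dark group of the engineered tumors held 41473500 and 42338096 counts, while the other 10 held between 2211234 and 2946792 and are called shallow here. In the 2 deep libraries the mitochondrial gene mt-Nd6 made up 3.56% and 3.85% of the counts of mitochondrial coding genes (95% Wilson intervals 3.54% to 3.59% and 3.83% to 3.88%), against 29.0% to 47.9% in the other 10. The mt-Nd6 gene is the mitochondrial coding gene that lies on the opposite strand from the rest, so in libraries of a strand-marking kit its share bears on which strand was counted. Whether the shallow libraries hold reads of the strand of each gene was not tested, which limits what a count of the 10 genes measures there. The summed level of 11 mast cell markers was 12150 and 9140 CPM (counts scaled to a common library size with TMM factors) in the deep libraries and 1978 to 2847 CPM in the others. Of these markers Kit, Cpa3 and Gata2 were above 0 in every library, while Ms4a2 and Tpsab1 were at 0 in several. The part of this difference in the results was not tested, so values are given with and without the 2 deep libraries, and no P815-M library was deep. A floor of 3 counts corresponds to 0.931 to 1.56 CPM in the 10 libraries and to 0.0670 to 0.0694 CPM in the deep ones, a limit that covers counting error only. The reads of the GAVPO construct were 1040 to 1520 counts in the shallow P815-IFNG libraries, 57786 and 79894 in the deep ones, and 0 to 4 in P815-M, as the line labels state. The cytokine cassette itself was counted much less, at 11, 6 and 228 counts in replicates 1, 2 and 3 of the P815-IFNG light group, 9, 6 and 126 in its dark group and 0 to 2 in P815-M. Its light and dark counts overlapped in the shallow libraries, and the deep pair, of nearly equal depth, gives no replicate check. The cassette holds mouse Ifng and Cxcl10 sequence that the mouse genome also holds. How reads of this shared sequence were assigned was not tested, so the counts may not measure expression of the whole cassette.

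The genes lie apart in the genome except for one pair. In the GRCm38 build, Casp1 (chr9:5298517-5307265, plus strand) and Casp4 (chr9:5308828-5336783, plus strand) are neighbours with 1562 bases between them. Zbp1 is at chr2:173206612-173218923 on the minus strand, Ripk1 at chr13:34002363-34037147 on the plus strand, Ripk3 at chr14:55784995-55788865 on the minus strand and Mlkl at chr8:111311797-111338177 on the minus strand. Gsdmd is at chr15:75862327-75867408, Fas at chr19:34290666-34327772, Tnfsf10 at chr3:27317028-27342427 and Casp8 at chr1:58795374-58847503, all on the plus strand. Ripk1 shares 241 of its 8344 exon bases (2.89%) with Serpinb6a on the opposite strand and 511 (6.12%) with the pseudogene Gm17084 on its own strand, so a small portion of its reads may be assigned uncertainly. No exon of the other 9 genes overlaps an annotated exon of another gene.

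Upstream sequence was taken from RefSeq (GRCm38.p6) as the 250 bases before each start, and was found for 8 of the 10 genes, the others being Zbp1 and Gsdmd. These windows were searched on both strands for TTCNNNGAA, the letters of the gamma-activated site of interferon-induced genes, and for a pair of GAAA separated by any 2 bases, letters that IRF proteins bind. Of the 8 genes, 2 (Fas and Ripk1) held TTCNNNGAA, beside 8.13% of 27025 genes, and 0 held the GAAA pair, beside 3.46% of all genes. In Fas the match begins 93 bases before the start, while in Ripk1 the 2 matches precede a second, downstream start. A match describes letters and not a site in use, and its absence says only that these letters are not in the window. The window of Fas (chr19:34290409-34290658, plus strand) is shown because it holds the match, in capitals. The windows of Casp1 (chr9:5298267-5298516, plus strand) and Casp4 (chr9:5308599-5308827, plus strand, 229 bases, ended where the annotated gene begins) are shown because these neighbours had like patterns across the tumors, and neither holds a match.
Fas: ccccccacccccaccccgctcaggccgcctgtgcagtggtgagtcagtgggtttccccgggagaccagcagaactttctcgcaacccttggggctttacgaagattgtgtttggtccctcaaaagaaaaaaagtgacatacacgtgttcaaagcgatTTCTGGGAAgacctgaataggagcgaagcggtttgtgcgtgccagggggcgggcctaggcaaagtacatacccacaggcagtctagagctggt
Casp1: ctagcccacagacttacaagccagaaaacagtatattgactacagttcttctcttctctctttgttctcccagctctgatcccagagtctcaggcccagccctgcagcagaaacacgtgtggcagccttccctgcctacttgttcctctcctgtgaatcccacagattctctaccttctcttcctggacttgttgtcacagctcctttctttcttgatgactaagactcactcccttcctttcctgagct
Casp4: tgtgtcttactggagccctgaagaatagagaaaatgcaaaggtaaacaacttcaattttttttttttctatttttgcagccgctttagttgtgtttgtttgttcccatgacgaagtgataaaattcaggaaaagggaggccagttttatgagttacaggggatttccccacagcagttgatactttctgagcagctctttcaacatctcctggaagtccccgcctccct

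Levels could be compared between genes only per length, as CPM per kilobase of exon. On this scale Ripk3 had the highest median level over the 10 shallow libraries, 28.9 CPM per kilobase (range 17.5 to 35.1), followed by Casp8 with 14.1 (8.43 to 17.7), Gsdmd with 11.9 (8.05 to 28.1) and Mlkl with 8.67 (6.99 to 14.3). The medians of Zbp1 (5.80), Ripk1 (5.64) and Casp1 (5.41) were close, but their ranges differed, from 4.49 to 7.001 for Ripk1 and from 1.33 to 16.9 for Zbp1. Tnfsf10 (3.17), Fas (2.15) and Casp4 (1.70) were the lowest. The ranges of Ripk3 and Casp8 met only at their edges (17.5 and 17.7), and those of the other neighbours in the order overlapped widely. In the 2 deep libraries Ripk3 (32.7) and Casp8 (23.8) were again the highest medians, and Tnfsf10 (11.5) was in the fifth place instead of the eighth.

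**Figure D1:**
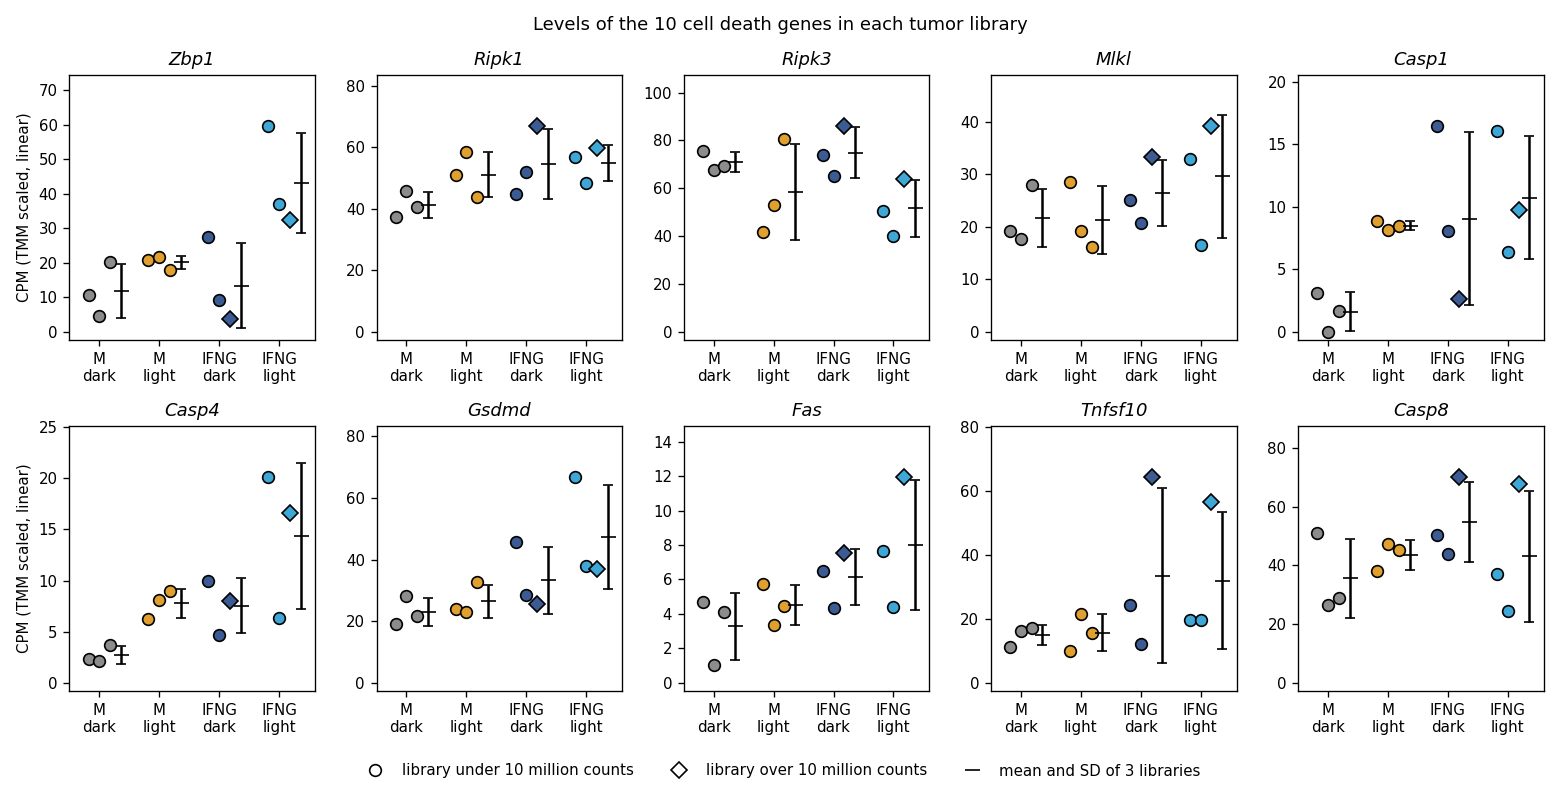
Each panel shows 1 gene, with CPM on a linear axis and the 4 groups (control P815-M and engineered P815-IFNG tumors, dark and light) side by side; circles are the 10 shallow libraries, diamonds the 2 deep libraries, and the bar beside each group is the mean and SD of 3 libraries. The Zbp1 values of the P815-IFNG light group (32.3 to 59.5 CPM) lie above those of every other group, and the Casp1 values of the P815-M dark group (0 to 3.12 CPM) lie below those of the P815-M light group.

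The first question was whether light changed the genes in engineered tumors, whose cytokine module is built to respond to light. Of the 10 genes, 0 passed edgeR's quasi-likelihood test at an adjusted p of 0.05 with a log2 fold change of at least 1, against 0% of all genes, and DESeq2 also called 0. At an unadjusted p under 0.05, edgeR had 1 gene (Zbp1), against 2.18% of all genes. DESeq2 had 2, but the share of all genes by DESeq2 was not counted, so this number has no comparison. Light values were higher on average for 7 of the 10 in the 12 libraries, against 48.3% of all genes, and for 7 in the 10 shallow ones. The median log2 fold change of the 10 genes was 0.22, beside -0.02 over all genes. For 1 gene (Zbp1) every light library exceeded every dark library, against 0.994% of all genes, and for 1 gene (Ripk3) every light library was below every dark library, against 2.75%.

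Zbp1, the nucleic acid sensor, measured 59.5, 37.1 and 32.3 CPM in replicates 1, 2 and 3 of the P815-IFNG light group and 27.3, 9.05 and 3.71 CPM in the dark group, the last of each being the deep library. All light values were above all dark values, and the dark group spread widely. On the log2 scale light exceeded dark by 1.71 ± 0.67 (SE, edgeR adjusted p of 1), with an exact permutation p of 0.1, the smallest that 3 against 3 libraries can give. The deep pair alone differed by 3.05 on the log2 CPM scale, and the 10 shallow libraries gave a log2 fold change of 1.40 ± 0.47 (adjusted p by edgeR 0.361). Leaving out 1 library moved the value between 1.20 (without dark replicate 3) and 2.80 (without dark replicate 1).

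The 2 kinases of the necroptosis route differed in pattern. Ripk1, the scaffold kinase below death receptors, measured 56.7, 48.3 and 59.7 CPM in light and 44.7, 51.9 and 66.9 CPM in dark, ranges that overlapped almost completely (log2 fold change 0.01 ± 0.25, interval -0.48 to 0.50). Ripk3, the kinase that acts on MLKL, measured 50.7, 40.01 and 64.0 CPM in light and 73.9, 65.01 and 86.0 CPM in dark. Each Ripk3 light value was below the lowest dark value, although light replicate 3 came within about 1 CPM of dark replicate 2. Its log2 fold change was -0.54 ± 0.30 (adjusted p of 1 by edgeR) and -0.62 ± 0.26 in the 10 shallow libraries (adjusted p by edgeR 0.430). Mlkl, the pore former, measured 33.0, 16.6 and 39.1 CPM in light and 25.1, 20.8 and 33.2 CPM in dark, with overlapping groups and a log2 fold change of 0.17 ± 0.38.

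Among the pyroptosis genes, Casp1 measured 16.1, 6.34 and 9.74 CPM in light and 16.4, 8.04 and 2.66 CPM in dark. The shallow Casp1 values nearly coincided between light and dark, while the deep pair differed by 1.80 on the log2 CPM scale, so that the log2 fold change of 0.27 ± 0.78 became -0.11 ± 0.58 without the deep libraries. Casp4 measured 20.1, 6.34 and 16.6 CPM in light and 9.93, 4.69 and 8.04 CPM in dark. Replicate 2 of the light group was low among its group for Casp4 and overlapped the dark range, and the log2 fold change was 0.93 ± 0.48 (adjusted p of 1 by edgeR). Gsdmd, the pore former cut by these proteases, measured 66.8, 38.1 and 37.0 CPM in light and 45.6, 28.5 and 25.7 CPM in dark. Dark replicate 1 was above light replicates 2 and 3 for Gsdmd (log2 fold change 0.51 ± 0.34), and without light replicate 1 the fold change was 0.14.

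For each of the 3 death receptor genes the deep library was the highest of its group, as it was for Ripk1, Ripk3 and Mlkl. Tnfsf10, the ligand TRAIL, measured 19.7, 19.5 and 56.6 CPM in light and 24.2, 12.1 and 64.4 CPM in dark, so that each deep library held over 2 times the level of any shallow one. The deep libraries exceeded the others of their group by 1.52 in light and 1.90 in dark on the log2 CPM scale, and the log2 fold change between light and dark was -0.07 ± 0.60. Fas, the receptor, measured 7.64, 4.39 and 11.9 CPM in light and 6.52, 4.36 and 7.55 CPM in dark, overlapping groups with a log2 fold change of 0.40 ± 0.56. Casp8, the initiator protease, measured 37.0, 24.4 and 67.7 CPM in light and 50.3, 43.9 and 70.0 CPM in dark. The groups overlapped because of the deep libraries (log2 fold change -0.34 ± 0.39), and in the shallow libraries both Casp8 light values were below both dark values (-0.61 ± 0.30, adjusted p by edgeR 0.481).

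Marker genes of other cell types differed in level between these groups, with 0 called by edgeR. The 9 skeletal muscle markers were all lower on average in light, with a summed level of 134 to 144 CPM in light and 169 to 496 CPM in dark, and Myh4 and Pvalb were at 0 in every light library. Of 10 endothelial and fibroblast markers 9 were lower (3797 to 6167 CPM in light, 4587 to 12510 CPM in dark). The summed level of 15 macrophage and monocyte markers overlapped, at 956 to 2300 CPM in light and 777 to 2132 CPM in dark, as did that of 15 T cell and NK cell markers, at 33.7 to 119 CPM and 64.0 to 93.4 CPM. Their part in the values of the 10 genes was not tested. In bulk tumor RNA, fewer cells of a type and less RNA per cell cannot be told apart.

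The second question was whether light alone changed the genes in control tumors, which lack the cytokine module and whose 6 libraries were all shallow. Again 0 of the 10 genes passed edgeR's test, against 0% of all genes, and DESeq2 called 0. By edgeR 2 genes (Casp1 and Casp4) had an unadjusted p under 0.05, against 2.71% of all genes. DESeq2 had 2, with no share of all genes counted beside them. Light values were higher on average for 8 of the 10, against 50.75% of all genes, with a median log2 fold change of 0.30 beside 0.01 over all genes. For 2 genes, Casp1 and Casp4, every light library was above every dark library, against 10.1% of all genes, and for 0 genes every light library was below, against 8.06%.

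Casp1 measured 8.82, 8.14 and 8.50 CPM in the P815-M light group and 3.12, 0 and 1.65 CPM in the dark group. The light values lay close together, and the dark values rested on 8, 0 and 4 counts. The log2 fold change was 2.35 ± 0.89 (adjusted p of 1 by edgeR, exact permutation p of 0.1). Casp4 measured 6.23, 8.14 and 8.94 CPM in light and 2.34, 2.08 and 3.70 CPM in dark, where it rested on 6, 4 and 9 counts. Its groups did not overlap either, and the log2 fold change was 1.51 ± 0.53 (adjusted p of 1 by edgeR). In the fit of the 10 shallow libraries the values were 2.27 ± 0.63 for Casp1 (adjusted p by edgeR 0.0988) and 1.48 ± 0.52 for Casp4 (0.207), and 0 of the 10 genes were called, against 0.927% of all genes. Without P815-M dark replicate 2, which had 0 counts of Casp1, the Casp1 value was 1.82, and without dark replicate 1 it was 3.26.

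In the same tumors 14 of 15 macrophage and monocyte markers were higher in light, with a median log2 fold change of 0.83 and a summed level of 1824 to 2084 CPM against 831 to 1181 CPM, which did not overlap. Marco, one of those markers, was at 0 in dark replicate 2. Of the T cell and NK cell markers 9 of 15 were higher, at 69.0 to 119 CPM against 37.0 to 78.5 CPM, and 7 of them were at 0 in dark replicate 2, Cd3e and Nkg7 among them. The summed level of 11 mast cell markers was lower in light, at 2068 to 2104 CPM against 2231 to 2847 CPM. Of these 11 markers 5 were higher and 6 lower on average. The sum of 6 neutrophil markers was 41.5 to 55.0 CPM against 60.9 to 71.9 CPM, again without overlap, with 2 higher and 4 lower. Most of the neutrophil sum was Cxcr2, at 29.8 CPM in light and 48.1 CPM in dark. Csf3r went the other way, at 11.96 and 9.39 CPM. The mt-Nd6 share of mitochondrial coding counts also stood apart, at 41.5% to 47.9% in light and 29.0% to 36.7% in dark. Macrophages are known to express Casp1 and Casp4, and the part of these markers and of the mt-Nd6 share in the difference was not tested.

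The other 8 genes overlapped between light and dark in control tumors. Zbp1 measured 20.8, 21.6 and 17.9 CPM in light and 10.54, 4.69 and 20.2 CPM in dark. Dark replicate 3 reached the light range for Zbp1, and the log2 fold change was 0.76 ± 0.67. Ripk1 measured 50.9, 58.4 and 43.8 CPM against 37.5, 45.8 and 40.7 CPM (0.30 ± 0.25). Ripk3 measured 41.5, 53.2 and 80.5 CPM against 75.7, 67.7 and 69.1 CPM, the highest and the lowest values both being in light (-0.28 ± 0.30). Mlkl measured 28.6, 19.2 and 16.1 CPM against 19.1, 17.7 and 28.0 CPM (-0.03 ± 0.38). Gsdmd measured 23.9, 23.0 and 32.6 CPM against 19.1, 28.1 and 21.8 CPM (0.21 ± 0.34). For each of these 5 genes the light and dark ranges overlapped.

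The death receptor genes were low or spread in control tumors. Fas measured 5.71, 3.35 and 4.47 CPM in light and 4.68, 1.04 and 4.12 CPM in dark, where replicate 2 held 2 counts and was under the floor of 3 counts (log2 fold change 0.44 ± 0.61). Tnfsf10 measured 9.86, 21.6 and 15.6 CPM in light and 11.3, 16.2 and 17.3 CPM in dark, with the lowest and highest values both in light (0.08 ± 0.62). Casp8 measured 37.9, 47.4 and 45.2 CPM in light and 51.1, 26.6 and 28.8 CPM in dark, where dark replicate 1 was above all light values (0.29 ± 0.40).

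**Figure D2:**
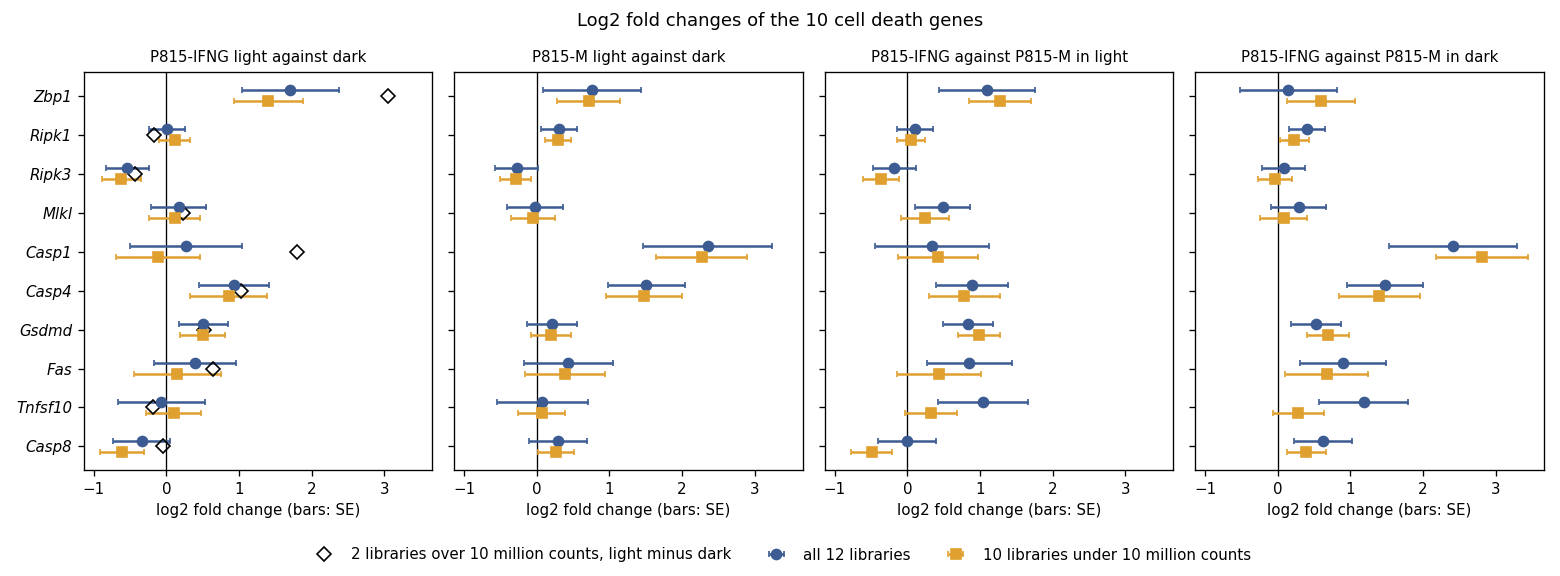
Log2 fold changes with SE bars for the 10 genes in the 4 comparisons, from the fit of all 12 libraries (circles) and of the 10 shallow libraries (squares); open diamonds in the first panel are the light minus dark log2 CPM difference of the 2 deep libraries. Zbp1 is the farthest to the right in engineered tumors (1.71), Casp1 in control tumors (2.35), and the Tnfsf10 values between the lines shrink from 1.04 and 1.19 to 0.32 and 0.28 when the deep libraries are left out.

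The third question was how the lines differed under light. This comparison shares its libraries with those above, so their values are given side by side and not set against each other. With edgeR, 0 of the 10 genes passed the test, against 0.016% of all genes, and DESeq2 called 0. At an unadjusted p under 0.05 there was 1 gene (Gsdmd) by edgeR, against 6.79% of all genes, and 0 by DESeq2. Engineered tumors had the higher average for 8 of the 10 genes, against 56.7% of all genes, and the median log2 fold change was 0.66 beside 0.15 over all genes. Without the deep libraries these medians were 0.37 and 0.00. For 2 genes (Zbp1 and Gsdmd) every P815-IFNG library was above every P815-M library, against 9.23% of all genes, and for 0 genes every library was below, against 7.71%.

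Gsdmd differed by 0.83 ± 0.34 on the log2 scale under light, with an adjusted p of 0.629 by edgeR and an exact permutation p of 0.1. Its lowest P815-IFNG value (37.0 CPM) was above its highest P815-M value (32.6 CPM), and the fold change was 0.99 ± 0.29 in the shallow libraries (adjusted p by edgeR 0.197) and 0.46 without P815-IFNG light replicate 1. Zbp1 differed by 1.10 ± 0.66 (adjusted p by edgeR 0.629), or by 1.28 ± 0.43 in the shallow libraries (0.299). Casp4 (0.89 ± 0.49), Fas (0.85 ± 0.58), Mlkl (0.49 ± 0.38), Casp1 (0.34 ± 0.79), Ripk1 (0.11 ± 0.25), Casp8 (0.00 ± 0.40) and Ripk3 (-0.18 ± 0.30) overlapped between the lines. Without the deep library Tnfsf10 went from 1.04 ± 0.61 to 0.32 ± 0.36, Fas to 0.43 ± 0.57, Mlkl to 0.25 ± 0.33, Ripk1 to 0.05 ± 0.20 and Ripk3 to -0.36 ± 0.25. Casp8 went to -0.49 ± 0.28, and each shallow P815-IFNG value of Casp8 was then below every P815-M value (adjusted p by edgeR 0.585).

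The fourth comparison set the lines side by side in the dark. There 0 of the 10 genes passed edgeR's test, against 0.0106% of all genes, and DESeq2 called 0. By edgeR 2 genes (Casp1 and Casp4) had an unadjusted p under 0.05, against 6.86% of all genes. DESeq2 had 2, again with no share of all genes counted. All 10 genes were higher on average in engineered tumors, against 64.2% of all genes, with a median log2 fold change of 0.58 beside 0.33 over all genes. In the 10 shallow libraries 9 were higher, with a median of 0.49 beside 0.05. For 1 gene (Casp4) every P815-IFNG library was above every P815-M library, against 10.9% of all genes, and for 0 genes every library was below, against 10.3%.

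Casp1 averaged 9.05 ± 6.95 CPM (SD, n = 3) in the P815-IFNG dark group and 1.59 ± 1.56 CPM in the P815-M dark group, a log2 fold change of 2.42 ± 0.88 (adjusted p by edgeR 0.604). The deep P815-IFNG dark library (2.66 CPM) lay within the P815-M range for Casp1. Without the deep libraries the difference was 2.81 ± 0.64 (adjusted p by edgeR 0.0295), and Casp1 was then the 1 gene of the 10 that passed, in a fit in which 2.19% of all genes passed. Casp4 averaged 7.55 ± 2.65 CPM against 2.71 ± 0.87 CPM (log2 fold change 1.47 ± 0.52, adjusted p by edgeR 0.604), and its groups did not overlap. The macrophage and monocyte markers were higher in engineered tumors for 11 of 15, with overlapping summed levels of 777 to 2132 CPM and 831 to 1181 CPM. The overlap came from the deep library (777 CPM). In the shallow libraries, in which Casp1 passed, 14 of 15 of these markers were higher, and the sums of 2132 and 2022 CPM lay above all P815-M sums, and their part was not tested.

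For the other genes in the dark, Tnfsf10 differed by 1.19 ± 0.61 with the deep library and 0.28 ± 0.35 without. Fas (0.89 ± 0.59), Casp8 (0.63 ± 0.40), Gsdmd (0.53 ± 0.34), Ripk1 (0.40 ± 0.25), Mlkl (0.29 ± 0.38), Zbp1 (0.14 ± 0.67) and Ripk3 (0.08 ± 0.30) overlapped between the lines. Without the deep library Gsdmd was at 0.69 ± 0.29 with both shallow P815-IFNG values above every P815-M value (adjusted p by edgeR 0.199), Casp8 at 0.39 ± 0.27, Ripk1 at 0.23 ± 0.20, Mlkl at 0.08 ± 0.32, Zbp1 at 0.59 ± 0.46 and Ripk3 at -0.03 ± 0.23. The Zbp1 value also depended on another library, being -0.98 without P815-IFNG dark replicate 1.

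The light effect itself was then compared between the lines. For 0 of the 10 genes did it differ by edgeR's interaction test, against 0% of all genes, with 0 at an unadjusted p under 0.05 by edgeR, against 1.66% of all genes, and 0 by DESeq2. In the shallow libraries 2 genes had an unadjusted p under 0.05, against 7.7% of all genes, namely Casp1 (-2.38 ± 0.86, adjusted p by edgeR 0.568) and Casp8 (-0.88 ± 0.39, adjusted p by edgeR 0.642). With all 12 libraries Casp1 had the widest difference, -2.08 ± 1.17 on the log2 scale (interval -4.38 to 0.22, adjusted p by edgeR 1.00), that is, a smaller light effect in engineered tumors. For Zbp1 the difference was 0.95 ± 0.94 (interval -0.88 to 2.79). Both intervals hold 0 as well as differences of over 2 on the log2 scale.

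Other ways of handling the deep libraries changed some calls. In the fit of the 10 shallow libraries 0 of the 10 genes passed in engineered tumors, light against dark (0.0059% of all genes), and 0 passed between the lines in light (0.23%). When counts were first adjusted for library kind with ComBat-seq, Zbp1 passed in engineered tumors, light against dark (log2 fold change 2.34, adjusted p by edgeR 2.28e-06), as 1 of 10 genes, against 0.798% of all genes. Casp1 passed in control tumors (2.28, adjusted p by edgeR 0.0278), against 1.31% of all genes. Zbp1 (1.81) and Gsdmd (1.01, adjusted p by edgeR 0.0417) passed between the lines in light, against 1.34%, and Casp1 (2.33) passed in the dark, against 2.89%. A model with library kind as a term left Zbp1 at 2.04 with an adjusted p of 0.113 by edgeR and Casp1 between the lines in the dark at 2.52 with an adjusted p of 0.0512, so that 0 of the 10 genes passed in any comparison.

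The genes that signal around the 10 were counted from lists of 5 pathways, in which 0 genes passed the test in any comparison by edgeR. Among 15 genes of interferon signalling, 10 were higher in light in engineered tumors (median log2 fold change 0.28) and 10 in control tumors (median 0.18). At an unadjusted p under 0.05 by edgeR there were 2 (Ifng and Irf1) in engineered tumors, against 2.18% of all genes. In control tumors there were 0, against 2.71%. Ifng averaged 6.20 ± 7.52 CPM in light and 1.179 ± 0.61 CPM in dark, and Irf1, the transcription factor, 132 ± 85.8 CPM and 52.4 ± 34.8 CPM, with overlapping groups for both. In control tumors Irf1 averaged 81.9 ± 10.3 CPM in light and 41.4 ± 20.5 CPM in dark without overlap (log2 fold change 0.98 ± 0.58). Ifngr1, a chain of the IFNG receptor, was 65.3 ± 28.8 CPM in P815-IFNG and 19.98 ± 4.34 CPM in P815-M in the dark, without overlap (1.71 ± 0.45, adjusted p by edgeR 0.604).

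Among 20 tested genes of the inflammasome list, 13 were higher in light in control tumors (median 0.53) and 11 in engineered tumors (median 0.12). Gbp2 and Gbp5, GTPases that help release bacterial lipopolysaccharide to caspase-11, averaged 103 ± 82.2 and 57.2 ± 60.5 CPM in light and 34.9 ± 37.0 and 20.8 ± 22.1 CPM in dark in engineered tumors, with overlap. In control tumors Gbp2 was 49.4 ± 6.19 CPM in light and 21.3 ± 8.23 CPM in dark, and Irgm2 was 29.96 ± 2.44 and 12.4 ± 9.84 CPM, both without overlap. Casp12, another inflammatory caspase of this list, chosen here after its values were seen, was likewise lowest in the P815-M dark group. It averaged 0.1301 ± 0.225 CPM in the P815-M dark group, which is under the floor, and 2.23 ± 0.98, 3.22 ± 1.12 and 4.28 ± 0.89 CPM in the P815-M light, P815-IFNG light and P815-IFNG dark groups.

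Among 19 adaptors and regulators of death receptor signalling, 18 were higher in engineered than in control tumors under light (median 0.60 beside 0.15 over all genes) and 17 in the dark (0.68 beside 0.33). The survival ubiquitin ligase Birc3 averaged 42.9 ± 18.2 CPM against 15.5 ± 2.60 CPM under light without overlap (1.48 ± 0.42, adjusted p by edgeR 0.629), or 1.07 in the shallow libraries, and Birc2 had a log2 fold change of 2.01 that was 0.52 in the shallow libraries. Light against dark, 12 of the 19 were higher in engineered tumors and 11 in control tumors, with Tnfrsf10b, the mouse receptor of TRAIL, at 6.41 ± 4.97 and 2.68 ± 0.92 CPM in the engineered tumors. Among 23 tested genes of mitochondrial apoptosis, 10 were higher in light in engineered tumors and 12 in control tumors (medians -0.03 and 0.07). Pmaip1, which encodes the BH3-only protein NOXA, was 15.2 ± 4.49 CPM in P815-IFNG and 5.84 ± 1.01 CPM in P815-M in the dark, without overlap. Among 9 genes of nucleic acid sensing beside Zbp1, 7 were higher in light in engineered tumors and 6 in control tumors, and Cgas, the DNA sensor, was 65.6 ± 4.55 CPM in light and 45.0 ± 3.26 CPM in dark in control tumors, without overlap.

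The 10 genes did not vary as 1 block across tumors. Over the 10 shallow libraries, which share depth and library kind but mix 4 groups, the log2 CPM values of Casp1 and Fas had a Pearson correlation of 0.90, those of Zbp1 and Casp4 of 0.84 and those of Casp1 and Casp4 of 0.81. Ripk3 ran the other way, with -0.62 against Ripk1 and -0.49 against Zbp1. Zbp1 followed Irf1 with a correlation of 0.97 (Spearman 0.92), and after the group means were taken out the value was 0.93, while over all 12 libraries it was 0.95. Casp4 (0.91), Fas (0.82) and Casp1 (0.80) also ran with Irf1, whereas Casp8 (0.13), Tnfsf10 (0.35) and Ripk3 (-0.47) did not do so closely. Gsdmd (0.64), Mlkl (0.56) and Ripk1 (0.46) lay between. After the group means were taken out, the values were 0.85 for Fas, 0.82 for Casp4, 0.81 for Casp1 and 0.80 for Mlkl. They were 0.47 for Casp8, 0.315 for Gsdmd, 0.20 for Tnfsf10, 0.18 for Ripk3 and -0.17 for Ripk1. Over all 12 libraries the values with Irf1 were 0.69 for Casp4, 0.49 for Fas and 0.77 for Casp1. Ripk1 ran instead with the macrophage receptor Csf1r (0.83 over the 10 libraries, but -0.55 over all 12). It did not run with Adgre1, another macrophage gene (-0.14 over the 10 libraries and -0.32 over all 12). Low counts limit the correlations of Fas and Casp1. Zbp1, Casp1, Casp4 and Fas all had their lowest shallow level in P815-M dark replicate 2, at 9, 0, 4 and 2 counts. Correlations without this library were not computed. All of these values are descriptions of these libraries.

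**Figure D3:**
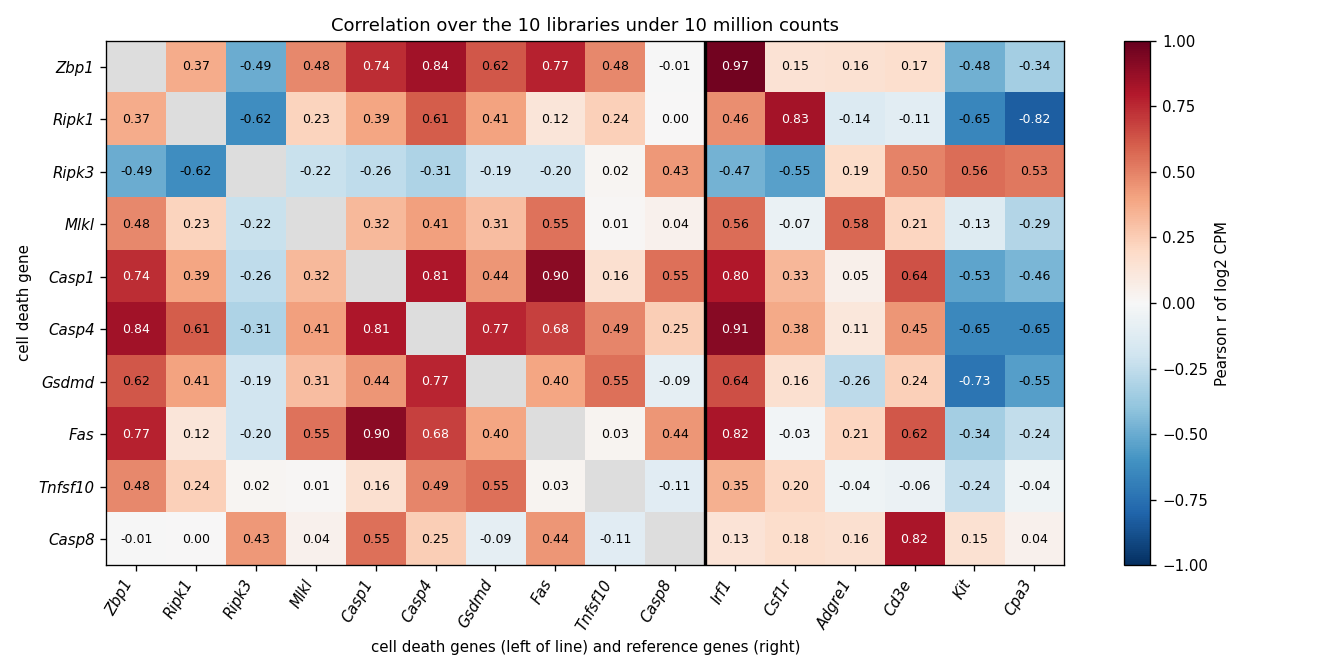
Pearson correlations of log2 CPM over the 10 shallow libraries, among the 10 genes (left of the line) and between them and 6 reference genes (right): the interferon factor Irf1, the macrophage genes Csf1r and Adgre1, the T cell gene Cd3e and the mast cell genes Kit and Cpa3. The block of high values joins Zbp1, Casp1, Casp4 and Fas with each other (0.68 to 0.90) and with Irf1 (0.80 to 0.97). Ripk3 is mostly negative against the other cell death genes.

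The genes whose log2 CPM ran closest with the mean of the 10 genes over the shallow libraries, of 8329 genes with at least 20 counts in each, were H2-Q7 (0.99), Cd74 (0.97), H2-Eb1 (0.97), Sdc3 (0.97) and H2-Aa (0.97). All of these except Sdc3 are known as antigen presentation genes. Over all 12 libraries the values fell to 0.31, 0.49, 0.34, 0.22 and 0.72, so the likeness holds for the shallow libraries and is weaker with the deep ones included. The mean of the 10 genes was lowest in P815-M dark replicate 2 (3.10), where Casp1 had 0 counts and a log2 CPM of -2.22. The part of this library in the likeness was not tested.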

How the data were processed

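Tumor RNA of 12 mice was sequenced from poly(A) libraries of a stranded kit. The deposited values are counts of reads per gene, made by the authors, per the labels, with STAR 2.7.9a and HTSeq 0.13.5 on mm10. DESeq2 1.32.0 is also named in the submitters' notes. The study's methods state default HTSeq settings, which count reads that align to the strand of the gene, and do not name the library kit. Whether reads so counted come from the RNA of the gene depends on the kit and was not tested. Whether the same kit and strand setting held for every library is not given in the sources used here. Here, the 13 mitochondrial rows were dropped, the 18804 genes with 10 or more counts over all libraries were kept, and 4 group means were fitted with edgeR 4.0.16 (TMM, quasi-likelihood test, R 4.3.3), with Benjamini-Hochberg adjustment over all genes. Single genes were also compared with a two-sided exact permutation test. CPM values use TMM factors and log2 CPM a prior count of 2. Alternatives were DESeq2 1.42.0, other filters, sva 3.50.0 (ComBat-seq), fits without the deep libraries and with 1 library left out. Code was tested on simulated data. All 10 members are named, with, per list and comparison, the 2 genes of largest fold change at 5 CPM or more, and the 5 most alike genes; some genes that this rule names are not reported here. The counts of members with a higher average were chosen for the alternatives after seeing the data. Members and lists were chosen with earlier results of these data known. Replicates are separate mice per the labels. Exon lengths and positions came from GENCODE on GRCm38. The symbols Sting1 and Mb21d1 of the sensing list are not used here.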

Additional observations from a re-analysis of the deposited data

How the results depend on the processing

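The count of called members stayed at 0 in all comparisons under DESeq2, its size factors, both other filters, mitochondrial genes kept, no minimum fold change, library kind as a term and each library left out, and with only the compared libraries in the 4 group comparisons. With ComBat-seq it was 1 for the light effect in P815-IFNG, 1 for that in P815-M, 2 between the lines in light and 1 between them in dark (its adjusted counts are then treated as observed), and it was 1 in the dark with only the 10 shallow libraries, where fewer genes and samples entered. The cause of these changes was not tested. Replicate numbers were shared only as numbers: 11 of 18 same-numbered pairs had deviations correlated above 0.1 (-0.29 to 0.98). Of 36 pairs with unlike numbers, 11 were also above 0.1 (-0.94 to 0.90). With the replicate block 0 members were called in any comparison. The median member fold changes moved by less than the spread between replicates. Signs turned, for values near 0, as follows. In P815-IFNG light against dark, Tnfsf10 became 0.007 with DESeq2 and with its size factors, 0.003 with ComBat-seq and 0.10 in the shallow libraries, Ripk1 -0.004 without a filter, and Casp1 -0.11 in the shallow libraries. Leaving out 1 library gave -0.091 to 0.132 for Ripk1, -0.24 to 1.04 for Casp1, -0.71 to 0.76 for Tnfsf10 and -0.039 to 0.449 for Mlkl. In P815-M light against dark, Mlkl was 0.007 with the replicate block and -0.30 to 0.20 with 1 library left out, and Tnfsf10 -0.22 to 0.32. Between the lines in light, Ripk1 was -0.004 with DESeq2 and with its size factors and -0.011 with library kind as a term, and with 1 library left out Casp1 was -0.11 to 0.59, Casp8 -0.48 to 0.27 and Ripk3 -0.37 to 0.13. In the dark, Ripk3 was -0.083 with DESeq2, -0.084 with its size factors, -0.062 with library kind as a term, -0.075 with ComBat-seq, -0.033 in the shallow libraries and -0.028 to 0.171 with 1 library left out, and Zbp1 was -0.085 with the replicate block and -0.98 to 0.77. Of the 10 members, 3 had a larger light effect in P815-IFNG, against 49.3% of all genes, and 5 did without P815-IFNG light replicate 2 or dark replicate 3. Depth limits Casp1, Casp4 and Fas most, at 0 to 20 counts in the P815-M libraries.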
